A study of Rattus norvegicus with 48 samples.

Results

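Aif1, Itgam and Tyrobp, 3 genes commonly used to mark microglia, were described in rat motor cortex around silicon electrodes. They were chosen by name and taken from the count tables by their Ensembl IDs, which are ENSRNOG00000000853 for Aif1, ENSRNOG00000019728 for Itgam and ENSRNOG00000020845 for Tyrobp. All 3 were present in both tables, out of 18997 distinct IDs. RNA was sequenced from areas cut out of fixed brain sections by laser capture microdissection, and each area was chosen by its distance from the shank of a single-shank silicon probe. Areas within 100 µm of the shank are called near tissue here, and far tissue was pooled from smaller pieces at a distance of about 500 µm. The implanted rats were collected at 24 h (3 rats), 1 week (5 rats) and 6 weeks (4 rats) after implantation, and each time gave 6 libraries per distance. Cortex of 3 naive rats, which had no implant, gave 6 libraries at each of the matching positions, named here naive 100 µm and naive 500 µm. All animals are labelled as wild-type Sprague-Dawley rats, and the protocol describes males aged 12 to 14 weeks. The labels name no drug or transgene in any group.

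Microglia are the resident phagocytes of brain tissue. They extend processes toward an injury or a foreign body, surround it and change their shape and their gene expression. Aif1 encodes the calcium- and actin-binding protein Iba1, whose antibody is the usual stain for microglia in sections. Itgam encodes integrin alpha M (CD11b), which pairs with the beta 2 chain to form complement receptor 3, a receptor for complement-coated material and for adhesion. Tyrobp encodes DAP12, a short membrane adaptor whose tyrosine motif passes on the signal of receptors that have no signalling tail of their own, TREM2 among them. Blood-derived macrophages, monocytes and other leukocytes also express these genes, Itgam and Tyrobp being present in neutrophils and natural killer cells too. In RNA from cut-out tissue, fewer cells of a type and less RNA per cell cannot be told apart, and neither can microglia and infiltrating myeloid cells from 3 shared genes. Marker lists of other cell types and of microglia were not analysed here, because the tables pair no other ID with a symbol.

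Libraries held 3363892 to 12844185 counts and 3062 to 16023 genes with at least 1 count. Of the 48, 4 had fewer than 6000 genes: the right-hemisphere near library of rat 29 at 24 h, and at 1 week the near library of rat 20, the right near library of rat 23 and the left far library of rat 23. The 2 most abundant genes took a median of 28.3% of the counts in near, 23.5% in far and 20.3% in naive libraries. Levels are given as CPM, a gene's counts scaled by the total of a rat's summed libraries at a position, and the rat is the replicate throughout. A library is a few pooled areas of tissue, and the intervals implied by a count of 0 cover counting error only. Implanted and naive libraries come from separate tables with separate series of library numbers, so table and implant cannot be told apart in any comparison with naive tissue.

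Aif1 and Itgam were detected in most libraries of implanted rats, Tyrobp mainly in near tissue, and each of the 3 was missing from most naive libraries. Of 18 near libraries, 13 had at least 1 count of Aif1, 15 of Itgam and 10 of Tyrobp. Among 18 far libraries the numbers were 14 for Aif1, 12 for Itgam and 3 for Tyrobp, and among 12 naive libraries they were 4, 4 and 1. For Tyrobp the positions differed in this at 1 week and 6 weeks but not at 24 h, when 2 near and 2 far libraries held it. All 3 genes were detected together in 8 near, 3 far and 1 naive libraries, and none of them in 1 near, 3 far and 5 naive libraries. Counts of 0 were common in these libraries, and the median gene of the implanted table had 0 counts in 9 of the 18 near libraries.

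**Figure D1:**
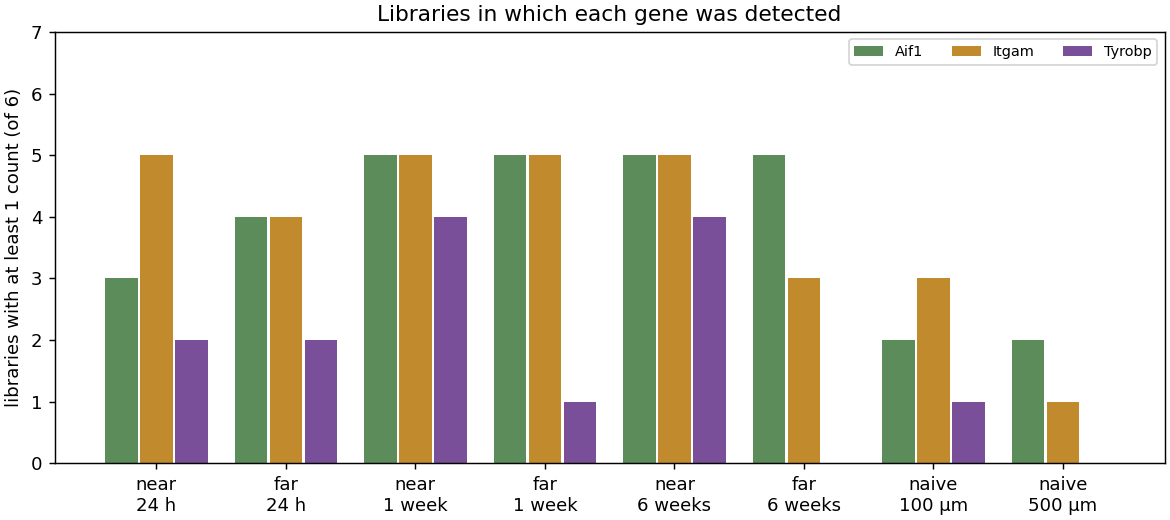
Number of libraries, out of 6 in each group, with at least 1 count of Aif1, Itgam or Tyrobp, by position and time. Tyrobp was found in 2 near and 2 far libraries at 24 h, in 4 near libraries at 1 week and at 6 weeks, against 1 and 0 far libraries, and in 1 of the naive libraries.

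For Aif1, the Iba1 gene, near tissue was above far tissue in every rat at 1 week and below it in most rats at 6 weeks. At 24 h near tissue had 59.5 CPM in rat 25, 0 in rat 29 and 14.6 in rat 30, and far tissue of the same rats had 35.1, 9.40 and 4.11 CPM. At 1 week near tissue had 19.98 CPM in rat 9, 55.3 in rat 10, 35.97 in rat 20, 34.6 in rat 22 and 37.4 in rat 23. Far tissue of these 5 rats, in the same order, had 0, 15.8, 6.36, 25.4 and 32.6 CPM. The difference between positions was smallest in rat 23, at 4.80 CPM, and the ranges of the 2 positions overlapped. At 6 weeks near tissue had 4.96 CPM in rat 2, 8.93 in rat 11, 0.383 in rat 17 and 3.47 in rat 19, against 25.4, 0, 2.48 and 17.1 CPM in far tissue. Rat 11 was thus the only one of 4 with more Aif1 near the shank at 6 weeks, and its far tissue had no count. The group means were 24.7 CPM ± 31.0 (SD, n = 3) near and 16.2 ± 16.6 far at 24 h, 36.65 ± 12.5 (n = 5) and 16.0 ± 13.4 at 1 week, and 4.44 ± 3.55 (n = 4) and 11.3 ± 12.1 at 6 weeks. Over the 12 rats Aif1 was higher near the shank in 8 and lower in 4.

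Itgam, the CD11b gene, had its highest levels in near tissue of single rats. At 24 h near tissue had 146 CPM in rat 25, 1.18 in rat 29 and 30.8 in rat 30, and far tissue had 23.7, 10.9 and 7.42 CPM. At 1 week near tissue had 123 CPM in rat 9, 16.97 in rat 10, 156 in rat 20, 73.5 in rat 22 and 39.2 in rat 23, and far tissue had 0, 17.4, 13.2, 67.2 and 17.9 CPM. Rats 9 and 20 stood far above their own far tissue, rats 10 and 22 had similar levels at both positions, and the ranges overlapped. The near value of rat 20 came from the shallowest library of the series, with 526 Itgam counts among 3363892. At 6 weeks near tissue had 3.99 CPM in rat 2, 27.6 in rat 11, 6.90 in rat 17 and 39.8 in rat 19, against 0, 0, 7.21 and 25.8 CPM in far tissue. Group means were 59.4 CPM ± 76.6 (SD, n = 3) near and 14.0 ± 8.57 far at 24 h, 81.8 ± 57.8 (n = 5) and 23.2 ± 25.7 at 1 week, and 19.6 ± 17.1 (n = 4) and 8.26 ± 12.2 at 6 weeks. Itgam was higher near the shank in 9 of 12 rats, and every rat had Itgam counts near the shank.

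The promoter of Itgam is shown because the microglial and myeloid factor PU.1 binds ETS-type sites with the core GGAA, and promoters of myeloid genes are known to carry them. RefSeq's table for the assembly GRCr8 held a promoter for 1 of the 3 genes, Itgam. The 154 bases before its annotated gene start, on the plus strand at chr1:192089342-192089495, are printed 5′ to 3′ with each GGAA in capitals.
Itgam: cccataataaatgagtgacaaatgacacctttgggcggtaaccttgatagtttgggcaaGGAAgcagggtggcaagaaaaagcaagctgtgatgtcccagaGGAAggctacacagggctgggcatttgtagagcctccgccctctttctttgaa
On both strands together the window held GGAA 2 times and the longer form GAGGAAGT, which contains GGAA, 0 times. Among the first 154 bases of 33469 promoter entries in that table, 82.12% held GGAA, with a median of 2 matches, and 1.064% held GAGGAAGT.

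Tyrobp, the DAP12 gene, was counted mostly in near tissue, which held 4001 of its counts in implanted rats against 329 in far tissue. At 24 h near tissue had 136 CPM in rat 25, 0.0471 in rat 29 (1 count) and 0 in rat 30, and far tissue had 9.85 CPM in rat 25 and 0 in the other 2 rats. At 1 week near tissue had 19.2 CPM in rat 9, 75.1 in rat 10, 0 in rat 20, 70.3 in rat 22 and 23.7 in rat 23, and far tissue had 29.3 CPM in rat 22 and 0 in the other 4 rats. At 6 weeks near tissue had 0 in rat 2, 0.169 CPM in rat 11 (1 count), 26.6 in rat 17 and 16.5 in rat 19, and far tissue had 0 counts in all 4 rats. No rat had less Tyrobp near the shank than far from it: 9 of 12 had more, 2 of these by a single count, and 3 had none at either position. Far tissue had 0 counts in 10 of the 12 rats, where a lower near value was not possible. The ranges still overlapped at each time, because near tissue of some rats had no Tyrobp. Group means were 45.5 CPM ± 78.7 (SD, n = 3) near and 3.28 ± 5.69 far at 24 h, 37.7 ± 33.2 (n = 5) and 5.86 ± 13.1 at 1 week, and 10.8 ± 13.1 (n = 4) near at 6 weeks. The absence from far tissue at 6 weeks rests on 53842609 counts. Among these, 0 Tyrobp counts allow a level of up to 0.0557 CPM (3 counts over the group), for counting error only.

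**Figure D2:**
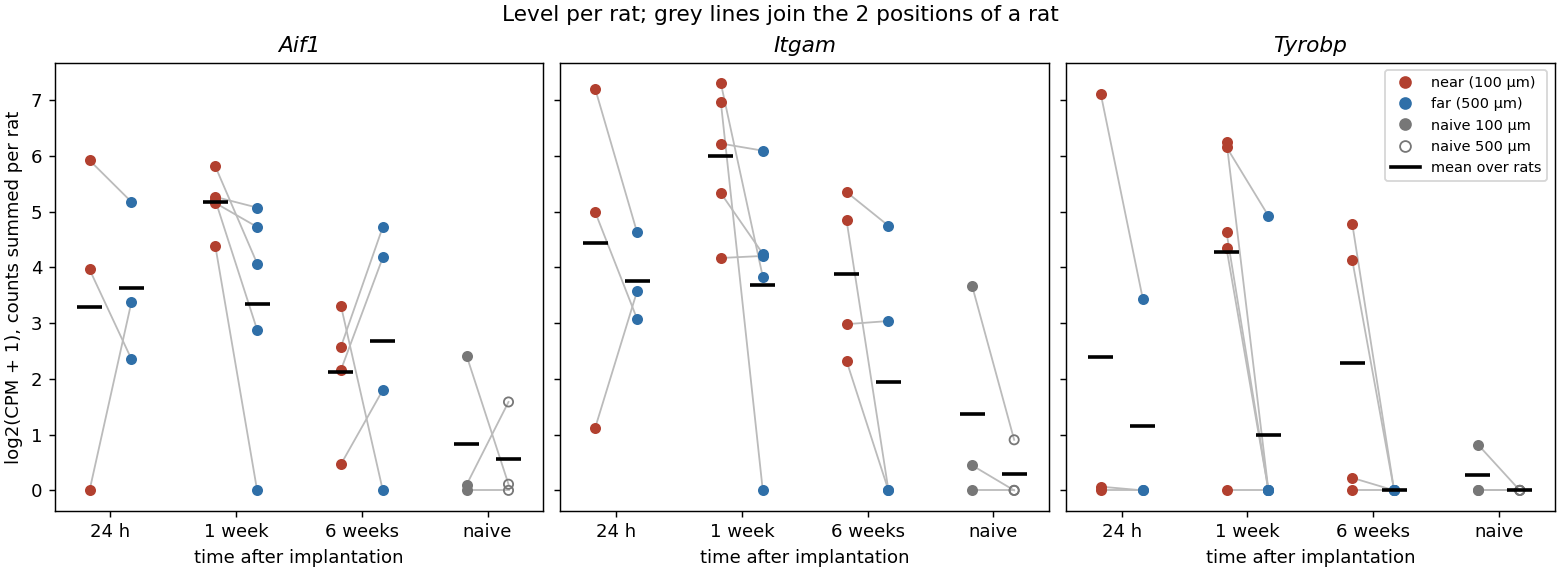
Level of each gene per rat on a log2(CPM + 1) scale, at 24 h, 1 week and 6 weeks after implantation and in naive rats; points are rats (red near, blue far, grey naive), grey lines join the 2 positions of 1 rat and black bars are means of the log values. Aif1 was above its far level near the shank in 5 of 5 rats at 1 week and 1 of 4 at 6 weeks, and no far tissue at 6 weeks held a Tyrobp count.

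Counts summed over all rats were also compared between the positions, gene by gene. Aif1 had 2577 near counts (18.7 CPM of the pooled total) and 2131 far counts (14.9 CPM), a 1.25-fold excess near the shank. Itgam had 6084 near counts (44.1 CPM) and 2215 far counts (15.5 CPM), 2.85-fold more. Tyrobp had 28.995 CPM near and 2.298 CPM far, 12.6-fold more. All 3 pooled ratios were above 1. By time the pooled Aif1 ratio moved from 1.23 at 24 h and 2.03 at 1 week to 0.307 at 6 weeks. The Itgam ratio was 3.41, 3.30 and 1.77 at these times. For Tyrobp it was 10.6 at 24 h and 9.69 at 1 week. At 6 weeks near tissue was at least 269-fold above far tissue (746 counts against 0, with a floor of 3 counts over the group). This bound covers counting error only, and rats 17 and 19 gave 416 and 329 of the 746 counts. These ratios weight rats by their depth and carry no test. A single library, the right-hemisphere near library of rat 25, gave 99.94% of the near Tyrobp counts at 24 h, 76.56% of those of Aif1 and 58.63% of those of Itgam. It held 761 of the 2577 near Aif1 counts over all times. Without that library the pooled Aif1 ratio is below 1 over all times and at 24 h, as is the Tyrobp ratio at 24 h. The Itgam ratios at 24 h and over all times, and the Tyrobp ratio over all times, stay above 1.

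The test of near against far tissue used edgeR's quasi-likelihood model, with the rat as a block and adjusted p-values over all 14399 genes of the fit. Averaged over the 3 times, Tyrobp rose near the shank, with a log2 fold change of 7.22 ± 2.01 (approximate standard error, adjusted p = 0.0269). It was the only one of the 3 genes called, at an adjusted p below 0.05, in a comparison that called 1.51% of all genes (217, of which 55 were higher near the shank). Itgam had a log2 fold change of 2.25 ± 1.18 (edgeR adjusted p = 0.670) and Aif1 one of 0.19 ± 1.56 (edgeR adjusted p = 1), beside a median of -0.39 over all genes. Far tissue had 0 Tyrobp counts in 10 of 12 rats, so the fitted size depends on how the model treats zeros and is no bound. The call was lost without the right-hemisphere near library of rat 25 (log2 fold change 5.57, edgeR adjusted p = 0.679), without the rat as a block (5.52, adjusted p = 0.218) and after omission of the 4 libraries with few genes (6.70, adjusted p = 0.119). Leaving out rat 25, 29, 9, 10, 23, 17 or 19 also ended it, with edgeR adjusted p-values of 0.530, 0.243, 0.0530, 0.0719, 0.0572, 0.137 and 0.124, while it held without rat 30, 20, 22, 2 or 11. DESeq2's Wald test, which called 8.47% of genes here, called Itgam (log2 fold change 2.51, adjusted p = 0.0220) and not Tyrobp (6.24, adjusted p = 0.0573).

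At single times none of the 3 genes was called between near and far tissue. At 24 h, where edgeR called 0.132% of genes, the log2 fold changes were -0.37 ± 3.12 for Aif1, 0.99 ± 2.11 for Itgam and 2.97 ± 2.86 for Tyrobp (adjusted p = 1 for each). The Aif1 value has the opposite sign to its difference in mean CPM; it was 1.27 without rat 29 and -3.69 without rat 30. In the unblocked fit it was 0.46. Itgam was -0.25 without rat 25 and -0.08 without rat 30. Omitting the right-hemisphere near library of rat 25 gave -7.61 for Aif1 and -1.72 for Tyrobp, so 1 library or rat decided the sign at 24 h for each gene. At 1 week, with 0.396% of genes called, the values were 2.07 ± 2.05 for Aif1 and 2.05 ± 1.54 for Itgam (edgeR adjusted p = 0.964 for both) and 8.97 ± 3.47 for Tyrobp (adjusted p = 0.429), beside a median of -0.66 over all genes. DESeq2 size factors in the edgeR fit moved that median by 0.19 log2 units. Without the rat as a block the Tyrobp value at 1 week was 2.85. At 6 weeks, with 0.0764% called, they were -1.12 ± 2.53, 3.70 ± 2.23 and 9.73 ± 3.60 (edgeR adjusted p = 1 for each), and Itgam was 1.39 without the block. The standard errors exceeded 1 log2 unit for every gene and time, so a difference of 1 log2 unit was not detectable for these genes.

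**Figure D3:**
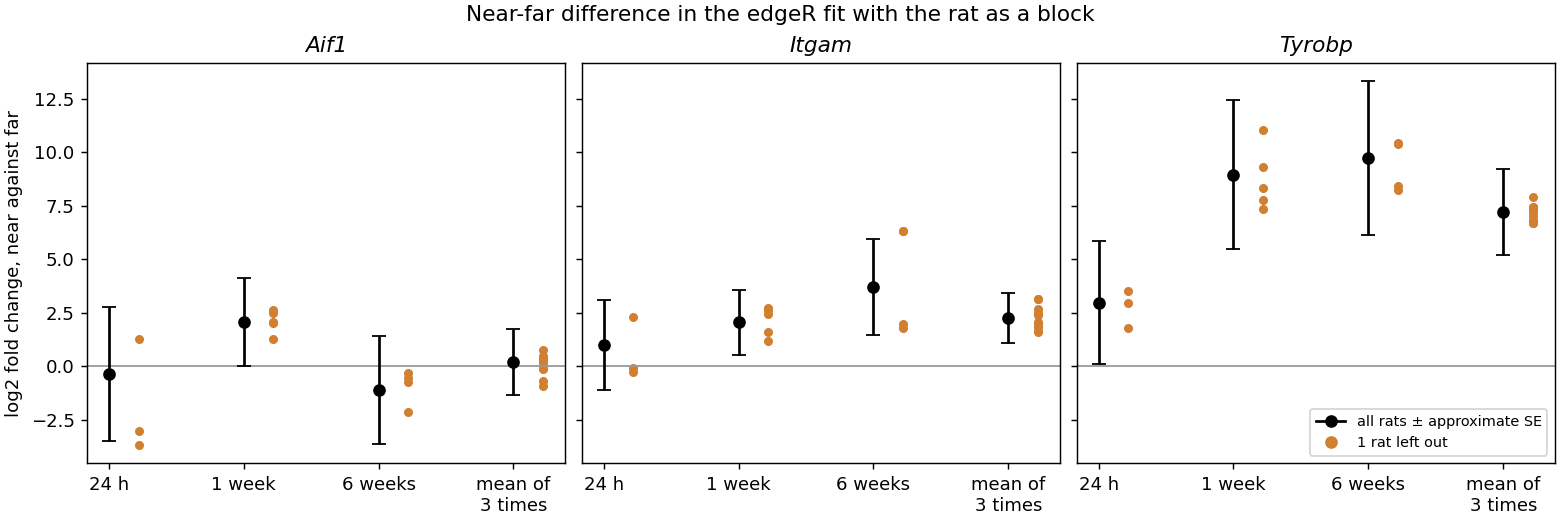
Log2 fold change of near against far tissue in the edgeR fit with the rat as a block, at each time and averaged over the 3 times; black points are the fit of all rats with an approximate standard error, orange points the fits that leave out 1 rat. The Tyrobp mean over the 3 times was 7.22, and the Aif1 values lay on both sides of 0.

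The near-far difference was also compared between times in the same fit. For Aif1 it was 2.44 ± 3.64 log2 units larger at 1 week than at 24 h, and at 6 weeks it differed by -3.19 ± 3.36 from 1 week and by -0.75 ± 4.11 from 24 h. Itgam gave 1.06 ± 2.55, 1.65 ± 2.82 and 2.71 ± 3.07 for these contrasts, and Tyrobp gave 5.99 ± 5.48, 0.76 ± 1.26 and 6.75 ± 4.69. The 1.26 is below the standard errors of the Tyrobp differences that it compares, 3.47 at 1 week and 3.60 at 6 weeks. It is therefore no measure of precision, and the alternatives for this Tyrobp contrast ranged from -1.37 to 7.20. None of the 3 genes was called (edgeR adjusted p = 1 throughout). The shares of all genes called were 0.0% for 1 week against 24 h, 0.0278% for 6 weeks against 1 week and 0.0208% for 6 weeks against 24 h. For the first of these, edgeR called 0 genes with 258 at an unadjusted p below 0.05, and DESeq2 called 417. Without the right-hemisphere near library of rat 25, the contrasts of 1 week and 6 weeks with 24 h were 9.66 and 6.50 for Aif1, 1.44 and 3.19 for Itgam and 10.7 and 11.1 for Tyrobp, none of them called. The reversal of the Aif1 order between 1 week and 6 weeks, seen in the values per rat, did not pass this test.

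Within near tissue all 3 genes were lower at 6 weeks than at 1 week, without reaching a call. The log2 fold change of 6 weeks against 1 week was -2.96 ± 1.90 for Aif1, -1.83 ± 1.06 for Itgam and -1.90 ± 1.82 for Tyrobp (edgeR adjusted p = 1 for each, 0.00781% of genes called). Near Aif1 did not overlap between these times: the lowest rat at 1 week had 19.98 CPM and the highest at 6 weeks 8.93 CPM. Itgam and Tyrobp overlapped. The share of all genes that separated between these times was not computed, so the Aif1 separation is a description. Against 24 h, the 6-week values were -2.17 for Aif1, -1.31 for Itgam and -1.68 for Tyrobp (0.0234% of genes called), and the 1-week values were 0.80, 0.53 and 0.22 (0.0469% called), with edgeR adjusted p = 1 for each. The Tyrobp value at 1 week against 24 h was -0.35, -0.36, -0.14 and -0.25 without rat 29, 30, 10 and 22 in turn. It stayed positive without rat 25, 9, 20 or 23. The right-hemisphere near library of rat 25 changed the size of both contrasts with 24 h. Without it the 1-week values were 2.79 for Aif1, 1.20 for Itgam and 10.0 for Tyrobp, and the 6-week values were -0.18, -0.63 and 8.13, the last with the opposite sign.

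Within far tissue the fitted changes between times were smaller than their standard errors. Aif1 had log2 fold changes of 0.08 ± 1.69 for 1 week against 24 h, -0.63 ± 1.76 for 6 weeks against 24 h and -0.72 ± 1.58 for 6 weeks against 1 week. Itgam had 0.74 ± 1.69, -0.80 ± 1.71 and -1.54 ± 1.58. Neither was called, with edgeR adjusted p-values from 0.99976 to 1, and the groups overlapped for both genes. Tyrobp did not pass the filter on low counts in far tissue and was not tested. In these 3 comparisons edgeR called 0 of 12995 genes (0.0%), with 546, 533 and 661 genes at an unadjusted p below 0.05, while DESeq2 called 196, 219 and 129.

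Naive tissue held few counts of any of the 3 genes. Aif1 had 0.0727 CPM in naive rat 2 (a different animal from the implanted rat 2), 4.33 in naive rat 3 and 0 in naive rat 5 at 100 µm, and 2.00, 0.0795 and 0 CPM at 500 µm. Itgam had 0, 11.6 and 0.363 CPM at 100 µm and 0, 0.875 and 0 CPM at 500 µm. Tyrobp had 14 counts in 1 library of naive rat 3 at 100 µm (0.768 CPM) and 0 counts in every other naive library. The counts were concentrated in single libraries, since 79 of the 80 Aif1 counts at 100 µm and 27 of the 28 at 500 µm came from 1 library each, as did 182 of the 216 Itgam counts at 100 µm and all 11 at 500 µm. None of the 3 genes passed the filter on low counts between the naive positions, so that comparison was not tested.

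Near tissue had fitted levels above naive 100 µm tissue for all 3 genes at each time, without a call by edgeR. The comparisons of the 3 times share the same 3 naive rats. At 24 h the log2 fold changes were 3.92 ± 2.38 for Aif1 (edgeR adjusted p = 0.948), 3.75 ± 1.55 for Itgam and 7.12 ± 2.83 for Tyrobp (adjusted p = 0.811 for both), with 0.0578% of genes called. The Tyrobp value turned to -2.70 without the right-hemisphere near library of rat 25. At 1 week they were 4.73 ± 2.40 for Aif1 (edgeR adjusted p = 0.574), 4.30 ± 1.54 for Itgam and 7.36 ± 2.81 for Tyrobp (adjusted p = 0.405 for both), with 0.123% called. At 6 weeks they were 1.78 ± 2.09, 2.48 ± 1.42 and 5.49 ± 2.59 (edgeR adjusted p = 1 for each), with 0.0434% called. Naive rat 3 set the size of these values. Without it they were 8.79, 8.22 and 11.6 for Aif1, Itgam and Tyrobp at 24 h, 9.59, 8.75 and 11.9 at 1 week and 6.63, 6.92 and 9.97 at 6 weeks, with no call (lowest edgeR adjusted p = 0.0529, for Itgam at 1 week). Only at 1 week did every near rat exceed every naive rat, 5 of 5 for both Aif1 and Itgam, beside 4 of 5 for Tyrobp. For all genes the share that did so at 1 week was not computed. At that time DESeq2's Wald test, which called 2.34% of genes, called Aif1 (log2 fold change 5.11, adjusted p = 0.0422) and Itgam (4.66, adjusted p = 0.00952). DESeq2 size factors in the edgeR fit moved the median of all genes by 0.18, 0.28 and 0.16 log2 units at the 3 times, less than any of the fold changes above.

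Aif1 and Itgam were also higher on average in far tissue than in naive 500 µm tissue, again without a call by edgeR. Every far rat at 24 h, 3 of 3, lay above every naive rat for both genes, as did 4 of 5 at 1 week. At 6 weeks 3 of 4 rats did so for Aif1 and 2 of 4 for Itgam. These orderings are descriptions, since the share of all genes with the same ordering was not computed. The log2 fold changes for Aif1 were 4.39 ± 2.55 at 24 h, 4.47 ± 2.48 at 1 week and 3.75 ± 2.42 at 6 weeks (edgeR adjusted p = 0.671, 0.537 and 0.731). For Itgam they were 5.61 ± 2.63, 6.35 ± 2.67 and 4.81 ± 2.49 (edgeR adjusted p = 0.642, 0.481 and 0.608). The shares of genes called were 0.00748%, 0.127% and 0.0598%, and DESeq2, which called 6.03% of genes at 1 week, called Itgam there (log2 fold change 6.53, adjusted p = 0.0145). Without naive rat 2 the Aif1 values were 8.30, 8.38 and 7.67, and without naive rat 3 the Itgam values were 10.4, 11.1 and 9.61, again uncalled. Tyrobp was not tested, and far tissue had 148 counts in rat 25 and 181 in rat 22 against 0 in naive 500 µm tissue.

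Left and right libraries of the same rat and position often differed between no count and many. Both hemispheres were sequenced in 6 implanted rats, giving 12 pairs of libraries at a matching position. In 4 of the 12 pairs Aif1 had 0 counts on 1 side and at least 10 on the other, as did Itgam in 6 and Tyrobp in 3. Near tissue of rat 25 at 24 h had 0 Tyrobp and 0 Aif1 counts on the left against 1744 and 761 on the right, while Itgam had 470 and 1399. Near tissue of rat 23 at 1 week had 463 Aif1 and 485 Itgam counts on the left but no Tyrobp, and on the right 293 Tyrobp counts but none of the other 2 genes. That right-hand library was 1 of the 4 with few detected genes. Rat 17 had 416 near Tyrobp counts at 6 weeks, all on the right. A gene well counted on 1 side could thus be missing from the other.

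**Figure D4:**
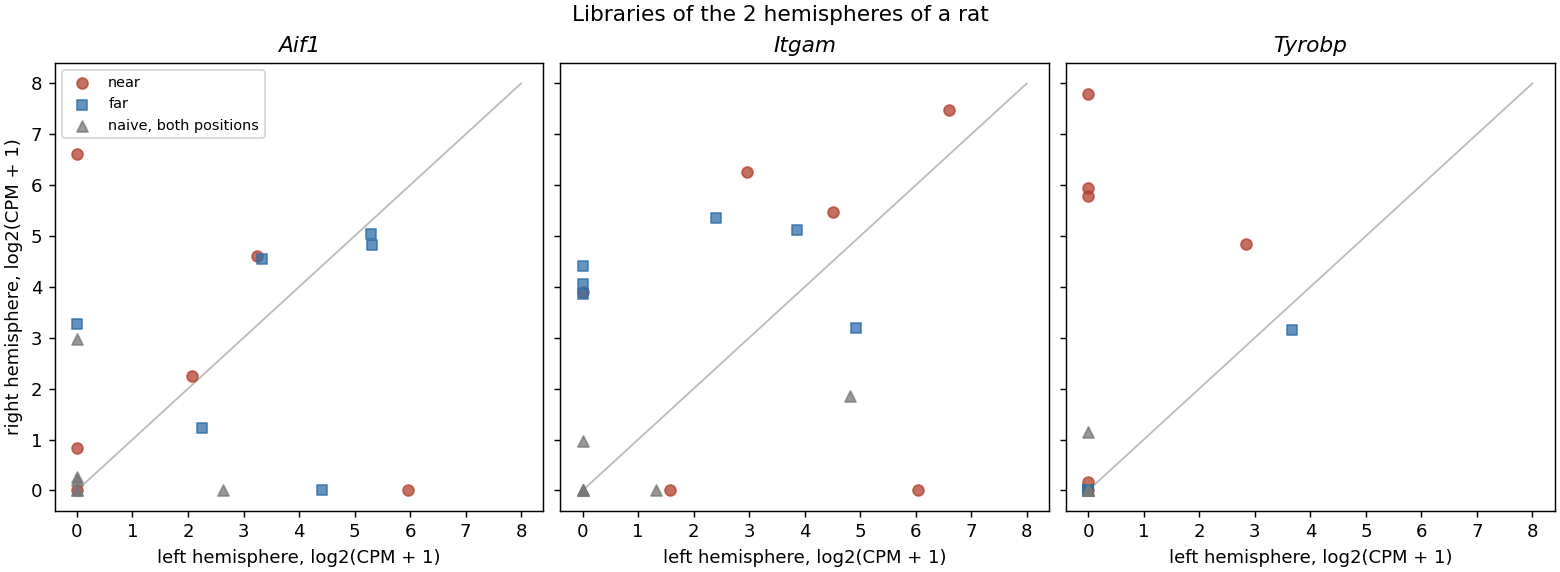
Level in the left (x axis) and right (y axis) hemisphere library of the same rat and position, log2(CPM + 1); red circles are near, blue squares far and grey triangles naive pairs, and the grey line marks equal levels. Points on an axis had 0 counts on 1 side, as in 4 Aif1, 6 Itgam and 3 Tyrobp pairs of implanted rats with at least 10 counts on the other side.

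The 3 genes varied together to different degrees over the 24 values of implanted rats, 12 near and 12 far, as log2(CPM + 1). Pearson's r was 0.70 between Aif1 and Itgam, 0.53 between Itgam and Tyrobp and 0.42 between Aif1 and Tyrobp. Within near tissue alone these were 0.77, 0.38 and 0.42, and within far tissue 0.66, 0.53 and 0.43 (12 rats each). Tyrobp had 0 counts in far tissue of 10 of the 12 rats, so its far coefficients rest on rats 22 and 25. The points share libraries, depth and, in pairs, the rat, so the coefficients are descriptions. The number of genes detected in a library, a measure of its quality, had r of 0.19 with Aif1, 0.28 with Itgam and 0.00429 with Tyrobp over the 18 near libraries, and -0.15, 0.29 and 0.16 over the 18 far ones. Its part in the results was not tested.

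Among the 8919 other genes whose mean CPM over these 24 values reached 3 as a log2, the pattern most like that of Aif1 over the 24 values was that of ENSRNOG00000006228 (r = 0.76), followed by ENSRNOG00000008639 (r = 0.71) and then by Itgam itself (r = 0.70). For Itgam the nearest were ENSRNOG00000013948 (r = 0.85) and ENSRNOG00000016164 (r = 0.75). For Tyrobp they were ENSRNOG00000052925 (r = 0.83) and ENSRNOG00000014258 (r = 0.83), which had counts in 7 and 5 of 12 near rats and in 5 and 2 of 12 far rats. With the filter set on the mean of the log2(CPM + 1) values instead, the nearest to Aif1 was unchanged, the nearest to Itgam was ENSRNOG00000016164 and the nearest to Tyrobp was ENSRNOG00000016592 (r = 0.78). The choice of filter thus decided the nearest gene for Itgam and Tyrobp, while ENSRNOG00000016164 was among the 2 nearest to Itgam with both filters. The tables give no symbols for these IDs.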

How the data were processed

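The deposited values are whole-number read counts per gene that the authors made, per the file headers, in 1 table for 36 libraries of implanted rats and another for 12 of naive rats, of 17317 and 17616 genes. Per the submitters' processing notes, the tools were STAR 2.6.1b, RSEM 1.3.1, cutadapt 2.3, FastQC 0.11.8 and DESeq2, and the build was Rnor_6.0, with no role or order given. RSEM estimates need not be whole, and any rounding step is not stated. The counts were used as deposited.

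Counts were summed per rat and position. CPM divides them by that sum's total, without TMM. The tests were run with R 4.3.3 and edgeR 4.0.16 (TMM, filterByExpr, robust quasi-likelihood fit, Benjamini-Hochberg over all genes of a fit). Genes were called at an adjusted p below 0.05. The near-far fit was also run on simulated counts that had no rat effect, and the outcome of that run is not used here. The approximate standard error is the size of the log2 fold change over the root of F. Near and far tissue shared 1 fit with the rat as a block. The pairing comes from the labels, which name each library's rat; the deviations of near and far tissue of a rat correlated by 0.00566 to 0.0883 across genes, above 0.1 in 0 of 12 rats. Other comparisons had different rats, and those with naive tissue used the 15936 genes in both tables. Each of 120 pairs of libraries within groups differed by more than sampling noise, with a chi-square of at least 55.35 per degree of freedom.

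Alternatives were no low-count filter, DESeq2 size factors, DESeq2 1.42.0 with its Wald test, omission of libraries with fewer than 6000 genes, no block, the rats of a time alone and each rat left out. Omission of the right-hemisphere near library of rat 25 was chosen after seeing the data. The genes, lists and tests were chosen with earlier results of these data known. Genes resembling a member were the 2 IDs with the highest Pearson r, and the second form of their level filter was also added after seeing the data.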

Additional observations from a re-analysis of the deposited data

Results flagged for a closer look

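Of 11 groups of 4 or 5 rats examined for a rat far from the others, 2 had one, both in far tissue of rat 22 at 1 week. It had 67.2 CPM of Itgam, where the gap to the next rat took 0.733 of the range of the 5 rats (critical value 0.71). It had 29.3 CPM of Tyrobp, where the other 4 rats had 0 counts. With 4 of 5 values at 0, any rat with counts stands out by construction, so the Tyrobp value is given as a description. The rate of about 1 in 20 groups that chance gives assumes normally distributed values and does not apply to groups with many zeros.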

How the results depend on the processing

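Of the log2 fold changes of Aif1, Itgam and Tyrobp under all alternatives, 565 kept their direction and their side of the threshold, 42 changed sign, 4 passed and 11 no longer passed. Of the counts of called genes among these 3, 219 were as reported. An unchanged count can hide a change of gene. Over the 3 times, DESeq2's Wald test kept the near-far count at 1 but called Itgam in place of Tyrobp. The count for near against far tissue over the 3 times fell from 1 to 0 without the libraries of few genes, without the block and without the right-hemisphere near library of rat 25, and lay between 0 and 1 when single rats were left out. DESeq2 called 2 of the genes in near and 1 in far tissue at 1 week against naive tissue. The cause was not tested for any of these changes.

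In the unpaired fit, with no replicate block, the sign turned for Aif1 at 24 h (0.46), for the near-far difference at 1 week against 24 h of Itgam (-0.17) and Tyrobp (-0.80), and for Itgam at 6 weeks against 24 h (-0.49) and 1 week (-0.32). Apart from the Tyrobp call over the 3 times, the block changed no call of these genes. Without the right-hemisphere near library of rat 25 the values became -1.72 for Tyrobp at 24 h, -2.22 for Aif1 over the 3 times, 6.50 for the near-far difference of Aif1 at 6 weeks against 24 h, 8.13 for near Tyrobp at 6 weeks against 24 h and -2.70 for near Tyrobp at 24 h against naive tissue. DESeq2 gave -1.36 for the near-far difference of Tyrobp at 6 weeks against 1 week, and omission of the libraries of few genes -0.0698 for far Aif1 at 1 week against 24 h.

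With single rats left out, near against far ranged from -3.69 to 1.27 for Aif1 and from -0.25 to 2.32 for Itgam at 24 h, and from -0.91 to 0.74 for Aif1 over the 3 times. The near-far difference ranged from -0.28 to 2.2996 for Itgam (1 week against 24 h), from -2.38 to 2.57 for Aif1 (6 weeks against 24 h), and from -0.24 to 4.28 for Itgam and -1.37 to 2.38 for Tyrobp (6 weeks against 1 week). Near tissue at 1 week against 24 h ranged from -0.0157 to 2.01 for Itgam and from -0.36 to 9.66 for Tyrobp, and at 6 weeks against 24 h from -1.97 to 0.22 and from -2.57 to 7.82. Far tissue at 1 week against 24 h ranged from -0.39 to 1.03 for Aif1 and from -0.24 to 1.12 for Itgam, and at 6 weeks against 24 h from -1.30 to 0.31 for Aif1. Near Tyrobp at 24 h against naive tissue ranged from -2.29 to 11.6.

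With 3 to 5 rats per group and 0 counts in many libraries, fold changes against groups of few or no counts are imprecise. In the fits of the rats of a time alone, Tyrobp did not pass the filter at 24 h or 6 weeks. Near Tyrobp against naive tissue rested on 14 naive counts of 1 library.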
